A study of Mus musculus with 6 samples.

Results

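The IL-12, IL-23 and interferon-gamma axis was followed through 9 genes, which were chosen by name as the ligand chains, receptor chains, signal transducer and product of that axis. They are *Il12b* and *Il23a* (cytokine chains), *Il12rb1*, *Il12rb2* and *Il23r* (receptor chains), *Stat4* (signal transducer), *Ifng* (the cytokine IFN-γ), and *Ifngr1* and *Ifngr2* (the IFN-γ receptor). All 9 were found among the 19449 genes of the single-cell table. IL-12 is a pair of the p40 chain, encoded by *Il12b*, and the p35 chain, encoded by *Il12a*, while IL-23 pairs the same p40 chain with the p19 chain, encoded by *Il23a*. Both cytokines bind the receptor chain of *Il12rb1*, which joins that of *Il12rb2* for IL-12 and that of *Il23r* for IL-23. IL-12 acts through STAT4 to raise IFN-γ in T and NK cells, IL-23 sustains type 17 T cells, and IFN-γ acts on myeloid cells through its own receptor pair. In experimental autoimmune encephalomyelitis (EAE), a mouse model of inflammatory demyelination of the central nervous system, IL-23 is known to be needed for disease, and T cells polarized with it can transfer disease.

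EAE was induced by adoptive transfer. CD4+ T cells reactive to the myelin peptide MOG35-55 came from immunized donors 8 to 12 weeks old. They were cultured for 96 hours with recombinant mouse IL-23, IL-1α and an antibody that neutralizes IFN-γ, and were injected into naive C57BL/6 recipients, either young adult (8 to 12 weeks) or middle-aged (40 to 44 weeks), of both sexes. CD45+ cells, the hematopoietic cells, were isolated from recipient spinal cords on day 6 and day 10 posttransfer, so that every single-cell library came from a mouse that had received IL-23-polarized T cells. A further pair of bulk RNA libraries holds spinal cord microglia from untreated young and middle-aged mice.

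Each age and day has 1 single-cell library, pooled from 4 spinal cords, so no value below has a replicate of its own group. Values are given in the order young adult day 6, middle-aged day 6, young adult day 10 and middle-aged day 10. In that order the libraries held 8315, 10026, 9843 and 9873 cells and between 57337626 and 69859331 unique molecular identifiers (UMIs, one for each captured RNA molecule), and 154 cell barcodes occurred in more than 1 library. The deposited clusters carry numbers only, and names ending in "-like" were given from marker genes. Microglial clusters 1 and 2 are deposited clusters 10 and 8, and whether they are the microglial clusters of the study was not tested. Deposited cluster 1 is the monocyte/macrophage-like cells. All other cluster numbers in the text are the deposited ones. The T cell-like cluster (T cells for short) held 1307, 1137, 1923 and 2463 cells, and all 6 T cell markers were detected there in each library with a summed level of 4433 to 4946 counts per 1000000 UMIs of the cluster (CPM). NK-like cells (259, 96, 243 and 181) held all 6 NK markers at 10133 to 11257 CPM, and also T cell markers at 536 to 1218 CPM. Dendritic cell (DC)-like cells (626, 289, 198 and 319) held the DC markers at 286 to 735 CPM, mature DC markers at 901 to 3119 CPM and T cell markers at 244 to 527 CPM. All own markers were also detected in monocyte/macrophage-like cells (10361 to 19811 CPM), in neutrophil-like cluster 0 (37134 to 49306 CPM) and in microglial cluster 1 (5329.6 to 7785 CPM).

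For each cluster and library the UMIs of a gene were added up. A log2 ratio of CPM between 2 libraries is given with an exact 95% interval in square brackets, which covers counting error only. Day and age were also tested across all genes with edgeR's quasi-likelihood test on the 4 sums of a cluster (day and age as terms, TMM scaling, Benjamini-Hochberg adjustment), and a gene was called at an adjusted p under 0.05. This model has 1 residual degree of freedom and assumes that the age difference is the same on both days, so it could not test whether age and day effects depend on each other. When a library was left out, only the tested term was kept, and the library left alone in its group was assumed to vary like the others.

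The 9 genes were led by different cell types. Among the 13 clusters with at least 20 cells in each library, and on the mean CPM of the 4 libraries, *Il12b* was highest in DC-like cells, *Il23a* in neutrophil-like cluster 0, *Il12rb1*, *Il23r* and *Ifng* in T cells, *Il12rb2*, *Ifngr1* and *Stat4* in NK-like cells, and *Ifngr2* in microglial cluster 1. The leading cluster stood apart from the next one, with no overlap of the 4 values, for *Il23a* (2.49 times cluster 13, which was left unnamed), *Il12rb2* (3.83 times T cells), *Ifngr1* (1.85 times T cells) and *Stat4* (1.98 times T cells). For *Il12b*, *Il12rb1*, *Il23r*, *Ifng* and *Ifngr2* the range of the leading cluster overlapped that of the next, so these did not differ beyond the spread between libraries, although for *Ifng* T cells were above cluster 13 (38.6, 1089, 282 and 136 CPM) in each of the 4 libraries. Clusters 12, 14 and 15 were too small for this order, and there *Il23a* reached 248 CPM in 19 cells of cluster 14 and *Ifng* 9558 CPM in 4 cells of cluster 15, both in the middle-aged day 6 library. The clusters were built by the authors from all genes, these included, and the order is therefore a description.

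**Figure D1:**
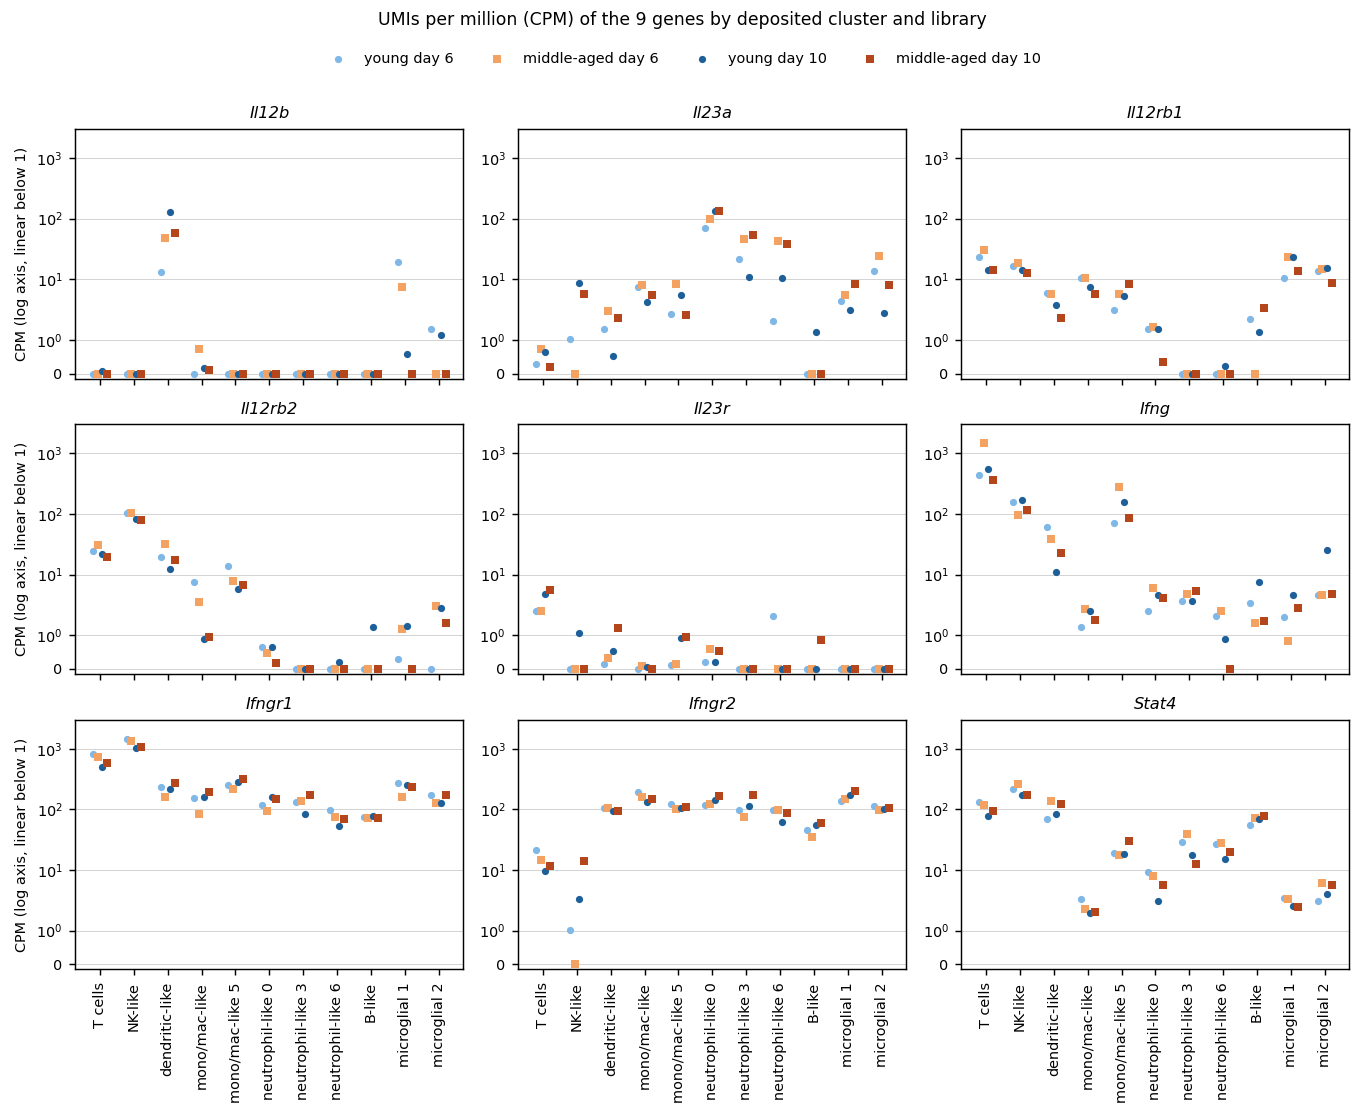
Level of each of the 9 genes (CPM within the cluster; the axis is linear below 1 and logarithmic above) in the deposited clusters, with 1 point for each of the 4 libraries. *Il12b* is concentrated in dendritic cell-like cells (13.2 to 128 CPM) and *Il23a* in neutrophil-like cluster 0 (71.3 to 134 CPM), while *Ifng* leads in T cells (361 to 1499.5 CPM) and *Il12rb2* in NK-like cells (81.1 to 103 CPM).

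For age, none of the 9 genes was called in any of the 6 clusters tested. Between 5 and 7 of the genes had enough counts to be tested in a cluster. Over all genes tested, the share called for age by edgeR was 0.0792% in T cells, 0.586% in NK-like cells, 0.466% in DC-like cells, 0.0982% in monocyte/macrophage-like cells, 0.142% in microglial cluster 1 and 0.229% in neutrophil-like cluster 0. At an unadjusted p under 0.05, edgeR picked *Ifng* in NK-like cells, *Il12rb2* and *Stat4* in DC-like cells and *Il12b* in microglial cluster 1, and none of the 9 in the other 3 clusters. DESeq2 called none of them in any cluster.

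For day, more of the genes moved. In T cells 2 of the 7 genes tested were called (*Il12rb1* lower and *Il23r* higher on day 10) against 7.22% of all genes, and in DC-like cells 2 of 7 (*Il12b* higher, *Ifng* lower) against 6.48%. In monocyte/macrophage-like cells 3 of 7 were called (*Il23a*, *Il12rb1* and *Il12rb2*, all lower) against 29.9%, and in neutrophil-like cluster 0 the count was 2 of 5 (*Ifngr2* and *Stat4*, lower) against 54.5%, so in these 2 clusters a call on day was common for any gene. In microglial cluster 1 it was 1 of 5 (*Il12b*, lower) against 6.63%, and in NK-like cells 0 of 5 against 2.24%, with *Ifngr1* and *Stat4* at an unadjusted p under 0.05 and no call by DESeq2. Without the young adult day 10 library, and likewise without the middle-aged day 10 library, none of the calls on these genes remained in T cells, DC-like cells or monocyte/macrophage-like cells, and in cluster 0 only that on *Stat4* did. Over all genes, too, fewer were called for day in each cluster in these fits. They leave 1 library alone in its group, so they cannot decide whether a call holds.

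*Il12b*, the shared p40 chain, came from a small number of DC-like cells. DC-like cells held 88, 139, 241 and 176 *Il12b* UMIs, a level of 13.2, 47.2, 128 and 58.3 CPM. These UMIs lay in 18, 16, 12 and 23 cells, or 2.88, 5.54, 6.06 and 7.21% of DC-like cells, and the 10 highest cells of each library held 90.9, 94.96, 99.2 and 90.9% of them. A single cell held 33, 72, 86 and 71 UMIs. The young adult day 6 library was the lowest and the young adult day 10 library the highest in CPM, although the latter had the fewest positive cells. After every cell was thinned to 2000 UMIs the positive shares were 0.801, 2.79, 4.74 and 5.54%.

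The *Il12b*-positive DCs carried the mature DC program. Between 98.9 and 100% of the *Il12b* UMIs of DC-like cells lay in cells with at least 2 UMIs of the mature DC genes *Ccr7*, *Fscn1*, *Ccl22*, *Cacnb3* and *Il4i1*, which mark DCs that have been activated and migrate to lymph nodes. Such cells made up 27.0, 53.6, 42.9 and 52.7% of DC-like cells, and 10.1, 10.3, 14.1 and 13.7% of them had an *Il12b* UMI. Within them the *Il12b* level was 53.0, 96.1, 352 and 133 CPM. In neutrophil-like clusters, B cell-like cells and NK-like cells no *Il12b* UMI was found in any library.

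The age contrast of *Il12b* in DC-like cells had opposite signs on the 2 days when all cells were summed, and the day contrast was far larger in young adult recipients. Middle-aged over young adult, the log2 ratio was 1.84 [1.44, 2.24] on day 6 and −1.14 [−1.43, −0.85] on day 10. The day 10 value was 0.062 when cells with markers of another lineage were left out and 0.0030 as a mean of log2 values per cell, so the lower level in the middle-aged library did not hold under either. Day 10 over day 6, the ratio was 3.28 [2.92, 3.65] in young adult recipients and 0.30 [−0.02, 0.64] in middle-aged recipients. With so few cells carrying the UMIs, these intervals do not cover the spread between cells or mice. In the edgeR test *Il12b* rose on day 10 by a log2 change of 1.70 ± 0.45 (SE; adjusted p = 0.0249). The adjusted p was 0.797 without the young adult day 10 library, 0.550 without the middle-aged day 10 library and 0.260 with age left out of the model, and DESeq2 gave 1.00.

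Outside DCs, *Il12b* was found mainly in microglial cluster 1 and in monocyte/macrophage-like cells. The former held 67, 18, 2 and 0 *Il12b* UMIs and the latter 0, 19, 4 and 3. In microglial cluster 1 all 67 of the young adult day 6 UMIs were in 1 cell, and the 18 of the middle-aged day 6 library were in 4 cells. The edgeR test gave a lower level there on day 10 (log2 change −5.23 ± 0.67, adjusted p = 0.00107), a value that rests on 5 cells of day 6. DC-like cells accounted for 56.4, 79.0, 96.02 and 98.3% of all *Il12b* UMIs of the libraries.

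*Il23a*, the p19 chain of IL-23, lay in another cell type. Neutrophil-like cluster 0 held 335, 1026, 608 and 769 *Il23a* UMIs, a level of 71.3, 99.8, 132 and 134 CPM. These UMIs were spread over 139, 412, 179 and 241 cells, or 9.34, 10.6, 10.4 and 11.2% of the cluster, and the 10 highest cells held 12.6 to 29.0% of them. Cluster 0 accounted for 57.1, 70.7, 67.3 and 70.9% of all *Il23a* UMIs while making up 17.9, 38.7, 17.6 and 21.9% of cells. B cell-like cells, taken as a background, had 0, 0, 2 and 0 *Il23a* UMIs, and T cells had it in 0.122 to 0.468% of cells.

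Within cluster 0 the *Il23a* level was lowest in the young adult day 6 library. The ratio of middle-aged over young adult was 0.48 [0.30, 0.67] on day 6 and 0.02 [−0.14, 0.17] on day 10, and that of day 10 over day 6 was 0.89 [0.70, 1.09] in young adult and 0.42 [0.29, 0.56] in middle-aged recipients. The median of all genes in this cluster shifted by 0.76 and 0.84 in the same 2 day contrasts, so *Il23a* rose slightly more than the median gene in young adult and less in middle-aged recipients. Under TMM scaling, which sets values against such a shift, the edgeR day change was −0.11 and not called (adjusted p = 0.535). Of *Il23a*-positive cells in cluster 0, 98.6, 98.3, 99.4 and 98.8% also had a UMI of *Il1b*, which encodes IL-1β, against 92.1, 91.7, 85.9 and 87.6% of the other cells. The positive cells were deeper, with medians of 2576 to 2955 UMIs against 2160 to 2332.

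Monocyte/macrophage-like cells held less *Il23a*, with 166, 211, 96 and 136 UMIs and 7.45, 8.04, 4.23 and 5.56 CPM. Both day 10 libraries were below both day 6 libraries, and the day change was −0.84 ± 0.22 (edgeR, adjusted p = 0.0109). The adjusted p was 0.194 without the young adult day 10 library, 0.0959 without the middle-aged day 10 library and 0.118 by DESeq2.

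The chains of the 2 cytokines were seldom found in the same cell. Over all libraries 87 cells had an *Il12b* UMI and 1583 an *Il23a* UMI, and 4 had both. *Il12a*, which encodes the p35 partner of IL-12, was detected in 1759 cells, of which 2 also had *Il12b*. At this depth a missing UMI does not show that the RNA was absent.

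*Il12a* was found mostly in monocyte/macrophage-like cells and cluster 0, and most of it in 1 library. Monocyte/macrophage-like cells held 264, 1400, 278 and 122 *Il12a* UMIs (11.8, 53.3, 12.3 and 4.98 CPM) and cluster 0 held 98, 425, 16 and 26. The middle-aged day 6 library was thus the highest in both. The edgeR test gave a day change of −1.84 ± 0.59 in monocyte/macrophage-like cells (adjusted p = 0.0309), but the log2 ratio of *Il12a* was −3.42 [−3.70, −3.15] in middle-aged and 0.05 [−0.20, 0.30] in young adult recipients. In cluster 0 the day change was −3.71 (adjusted p = 1.4e-08), and both day 10 libraries were below both day 6 libraries.

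**Figure D2:**
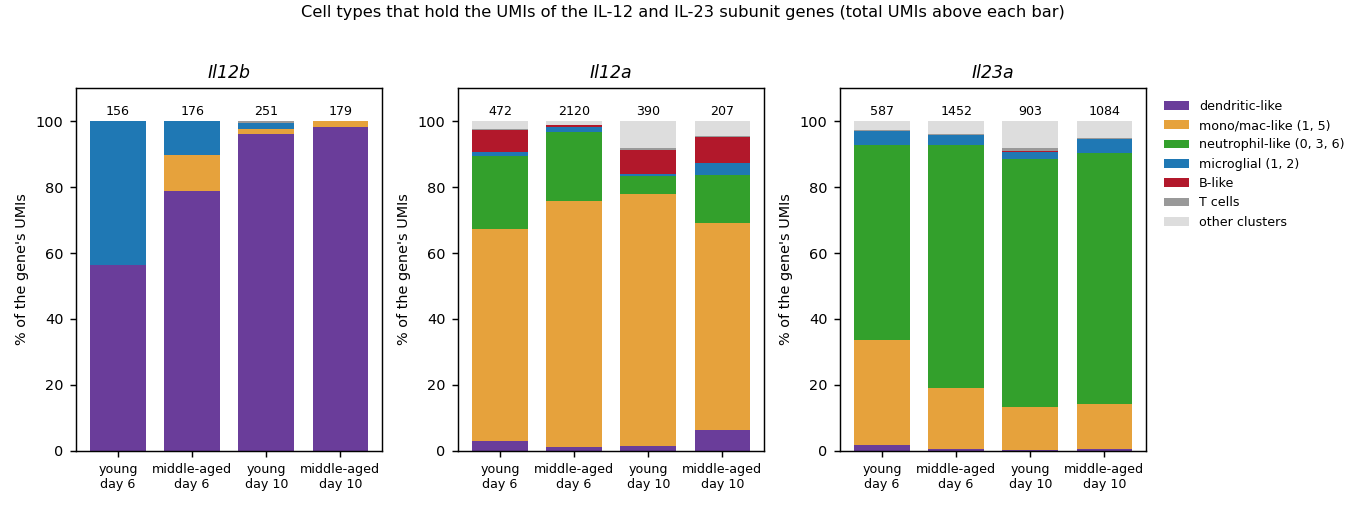
Share of all *Il12b*, *Il12a* and *Il23a* UMIs of a library (percent, stacked) that lay in each cell type, with the total number of UMIs above each bar. *Il12b* lay mostly in dendritic cell-like cells (56.4 to 98.3%) and *Il23a* in neutrophil-like cluster 0 (57.1 to 70.9%), whereas *Il12a* was shared between monocyte/macrophage-like and neutrophil-like cells.

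*Il12rb1*, the receptor chain used by both cytokines, had its highest mean level in T cells and fell there by day 10. Its range in T cells overlapped that of microglial cluster 1. On day 6 monocyte/macrophage-like cells held more of its UMIs than T cells did (236 in the young adult and 274 in the middle-aged library). T cells held 166, 213, 201 and 223 *Il12rb1* UMIs, or 23.4, 31.0, 14.5 and 14.4 CPM, and 10.6, 15.2, 8.996 and 8.32% of them had a UMI. Both day 10 libraries lay below both day 6 libraries, and the day 10 libraries differed from each other by less than counting error. After thinning to 2000 UMIs the shares were 3.53, 6.58, 3.25 and 3.05%. In cluster 0, taken as the background from free RNA, 0.0926 to 0.470% of cells had a UMI.

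The day ratio of *Il12rb1* in T cells was −0.69 [−0.996, −0.39] in young adult and −1.10 [−1.38, −0.83] in middle-aged recipients. The edgeR change was −0.80 ± 0.20 (adjusted p = 0.0186), and the call was lost without the young adult day 10 library (adjusted p = 0.156), without the middle-aged day 10 library (0.226) and by DESeq2 (0.269). In monocyte/macrophage-like cells *Il12rb1* also fell, from 10.6 and 10.4 CPM on day 6 to 7.59 and 5.68 CPM on day 10 (−0.84 ± 0.21, adjusted p = 0.00923). This call, too, was lost without either day 10 library (adjusted p = 0.0682 and 0.165) and by DESeq2 (0.0835). In microglial cluster 1 the levels were 10.47, 23.1, 23.05 and 13.9 CPM, with no order by age or day.

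*Il12rb2*, the chain that makes the receptor specific for IL-12, had its highest level in NK-like cells. These held 100, 39, 77 and 57 *Il12rb2* UMIs, or 103, 103, 83.9 and 81.1 CPM, and 29.3, 30.2, 25.5 and 23.2% of them had a UMI. In T cells the level was 24.3, 30.9, 22.3 and 19.5 CPM and the share 10.8, 13.7, 12.5 and 9.78%, whereas in cluster 0 the share was 0.0463 to 0.201%. In T cells the middle-aged day 6 library had the highest level (30.9 CPM) and the middle-aged day 10 library the lowest (19.5 CPM). The T cell share on day 10 was lower in the middle-aged library, with intervals that did not overlap without thinning but did after it. Neither age nor day was called in NK-like cells or T cells (day in T cells −0.29 by edgeR, adjusted p = 0.522).

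*Il12rb2* and *Il23r* are neighbours on the minus strand of chromosome 6 (GRCm38; 67291318 to 67376188 and 67422932 to 67491855). The 150 bases before the RefSeq start of *Il12rb2* (GRCm38.p6, chr6:67376189-67376338, minus strand) are shown because this gene fell most strongly of the 7 members tested by edgeR in monocyte/macrophage-like cells, as described next, and because the window holds a match to the GAS motif TTCNNNGAA, to which STAT dimers bind. The match is in capitals and lies 123 to 115 bases before the start.
Il12rb2: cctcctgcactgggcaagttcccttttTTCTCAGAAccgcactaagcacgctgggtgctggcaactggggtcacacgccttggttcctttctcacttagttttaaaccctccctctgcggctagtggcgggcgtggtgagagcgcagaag
Over all 32851 RefSeq promoters, searched on both strands in the 250 bases before the start, 7.02% held this motif. Of the 9 genes, 7 were in the promoter table, and GAS matches were found for *Il12rb2* and *Ifng*. The ISRE motif (GAAA, any 2 bases, then GAAA), recognized by interferon regulatory factors and held by 2.98% of promoters, was found for *Stat4*. A match is a description of the sequence and does not show binding.

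In monocyte/macrophage-like cells *Il12rb2* was low and fell further with day. These cells held 169, 94, 20 and 23 *Il12rb2* UMIs (7.58, 3.58, 0.882 and 0.939 CPM), and 6.08, 3.08, 0.877 and 0.942% of them had a UMI. The day 6 libraries were above the day 10 libraries, and on day 6 the young adult library was above the middle-aged one. On day 6 the age ratio (middle-aged over young adult) was −1.08 [−1.46, −0.71], and the day ratio was −3.10 [−3.85, −2.43] in young adult and −1.93 [−2.66, −1.26] in middle-aged recipients.

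By edgeR, *Il12rb2* fell in monocyte/macrophage-like cells by day 10 (−2.68 ± 0.33, adjusted p = 5.84e-05), and DESeq2 called it too (1.27e-05). The adjusted p was 0.0598 without the young adult day 10 library and 0.0648 without the middle-aged day 10 library. Cells with 2 or more UMIs of T cell receptor complex genes held 2.96, 0, 5.00 and 8.70% of these UMIs, so most of the *Il12rb2* RNA lay in cells below that number. After thinning to 2000 UMIs the shares were 1.44, 0.547, 0.233 and 0.130%, which on day 10 is a handful of cells.

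In DC-like cells the *Il12rb2* level was 19.4, 31.9, 12.2 and 17.2 CPM. On each day the middle-aged library was higher, and each day 10 library was lower than the day 6 library of its age. Neither difference was called (age 0.67 ± 0.26, adjusted p = 0.360; day −0.86 ± 0.27, adjusted p = 0.0665). DC-like cells with mature DC genes, which were more frequent in the middle-aged libraries, had 33.5, 56.7, 24.8 and 29.4 CPM against 14.7, 8.002, 5.02 and 7.68 CPM in the others, and the part of this in the age difference was not tested.

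*Il23r*, the chain specific for IL-23, was rare and rose in T cells by day 10. T cells held 18, 17, 67 and 87 *Il23r* UMIs, or 2.54, 2.48, 4.83 and 5.63 CPM, in 13, 16, 52 and 73 cells. These were 0.995, 1.41, 2.70 and 2.96% of T cells, against 0.0578 to 0.155% of cells in cluster 0 and no UMI in the microglial clusters. Both day 10 libraries were above both day 6 libraries, and within a day the 2 ages were alike to within counting error. The thinned shares were 0.471, 0.548, 1.06 and 1.23%.

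The day ratio of *Il23r* was 0.93 [0.16, 1.77] in young adult and 1.18 [0.42, 2.03] in middle-aged recipients, and the edgeR change was 1.16 ± 0.32 (adjusted p = 0.0317). The adjusted p was 0.154 without the young adult day 10 library, 0.253 without the middle-aged day 10 library and 0.721 by DESeq2. T cells with 2 or more UMIs of γδ T cell genes were 3.08 to 4.59% of the cluster and held 66.7, 29.4, 19.4 and 20.7% of the *Il23r* UMIs.

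*Il23r*-positive T cells were set beside the other T cells for *Il17a*, the type 17 cytokine, and for *Ifng*. A UMI of *Il17a* was found in 23.1 to 56.3% of them, against 3.09 to 13.5% of T cells without *Il23r*. For *Ifng* the shares were 15.4, 6.25, 11.5 and 9.59% against 19.6, 26.3, 33.9 and 28.3%. The share with *Il17a* was the higher and that with *Ifng* the lower of the pair in each of the 4 libraries, and no test was made since cells of 1 library are not replicates.

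**Figure D3:**
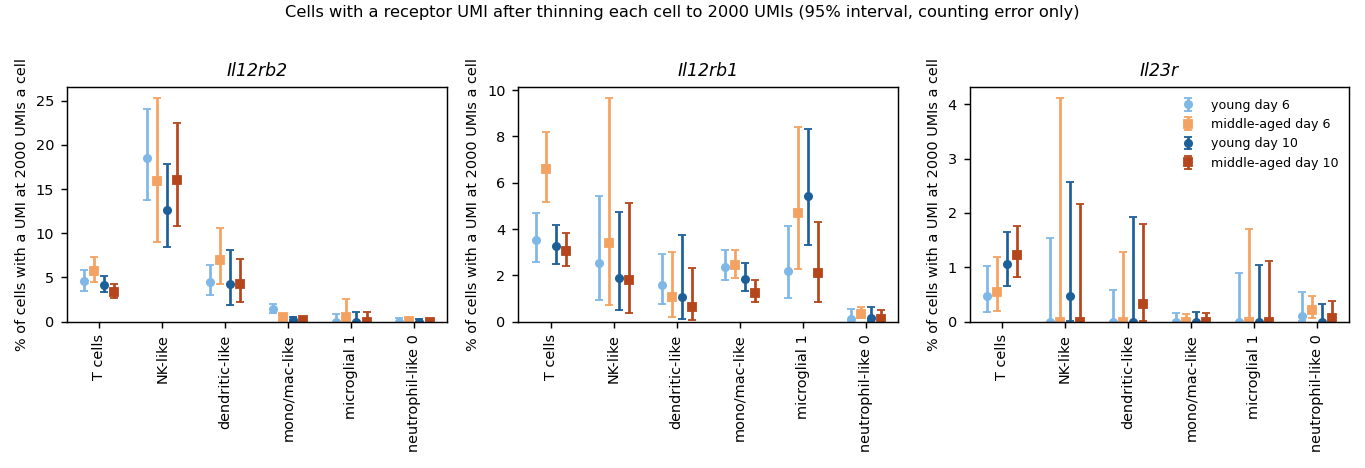
Share of cells with a UMI (percent, after thinning every cell to 2000 UMIs, with the exact 95% binomial interval) of *Il12rb2*, *Il12rb1* and *Il23r* in 6 clusters and 4 libraries. NK-like cells had the highest *Il12rb2* share (12.6 to 18.5%), and *Il23r* reached 0.471 to 1.23% in T cells.

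*Stat4*, which encodes the transcription factor downstream of the IL-12 receptor, was highest in NK-like cells (218, 264, 173 and 175 CPM). In T cells it had 937, 815, 1062 and 1432 UMIs, or 132, 119, 76.6 and 92.7 CPM, and was detected in 45.9, 44.5, 38.7 and 40.1% of cells. The day 10 values were below the day 6 values in both cell types, but the decrease did not pass the test in T cells (−0.46, adjusted p = 0.165). In B cell-like cells the level was 54.9 to 76.4 CPM.

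In DC-like cells *Stat4* had 454, 404, 155 and 370 UMIs and 68.2, 137, 82.5 and 123 CPM. Both middle-aged libraries were above both young adult libraries, with log2 ratios of 1.01 [0.81, 1.21] on day 6 and 0.57 [0.30, 0.85] on day 10. The edgeR age difference was 0.83 ± 0.21 (adjusted p = 0.0925), and it passed only when genes with low counts were not filtered out. Here too the level followed the mature DC genes: DC-like cells with them had 166, 254, 202 and 252 CPM of *Stat4*, and the others 36.3, 24.0, 14.2 and 21.3 CPM. Within cells with these genes the middle-aged libraries were still higher, and in those without them this held on day 10 but not on day 6.

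In neutrophil-like cluster 0 *Stat4* was low (44, 81, 14 and 32 UMIs; 9.37, 7.88, 3.05 and 5.57 CPM). It fell there on day 10 (−1.71 ± 0.31 by edgeR, adjusted p = 3.15e-04), and the call held in every setting tried, each of the 4 libraries left out included. All of these settings scale against the typical gene of the cluster, which rose in CPM, and this makes the decrease larger. In CPM it was smaller in middle-aged (7.88 to 5.57) than in young adult recipients (9.37 to 3.05). The middle-aged change in CPM, from 81 and 32 UMIs, was within counting error. The share of cells with a UMI was 0.752 to 2.62%, and in microglial cluster 1 it was 2.08 to 2.49%.

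*Ifng* was found mainly in T cells, at a level that a small number of very high cells set. T cells held 3124, 10292, 7740 and 5584 *Ifng* UMIs, or 441, 1499.5, 559 and 361 CPM. The middle-aged day 6 library was by far the highest. Of T cells, 19.5, 26.0, 33.3 and 27.7% had an *Ifng* UMI, and by this measure the young adult day 10 library was the highest. In cluster 0, which should lack *Ifng*, the share was 0.806, 1.57, 1.21 and 1.11% at median depths of 2365, 2193, 2267 and 2331 UMIs, against 4715, 5034, 6225 and 5345 in T cells. After thinning to 2000 UMIs the T cell shares were 12.9, 19.7, 21.9 and 17.6%.

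Cells with 50 or more *Ifng* UMIs numbered 9, 47, 24 and 15, or 0.689, 4.13, 1.25 and 0.609% of T cells. They held 64.9, 84.0, 42.4 and 27.7% of the *Ifng* UMIs of T cells. The high level of the middle-aged day 6 library was thus that of 47 cells, and its share of cells with 10 or more UMIs (8.71%) was close to that of the young adult day 10 library (8.53%), against 2.75% on day 6 in young adult and 5.28% on day 10 in middle-aged recipients. A single cell held 704, 862, 1094 and 344 *Ifng* UMIs.

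The log2 ratio of *Ifng* in T cells, middle-aged over young adult, was 1.77 [1.71, 1.82] on day 6 and −0.63 [−0.68, −0.58] on day 10. Day 10 over day 6, it was 0.34 [0.28, 0.40] in young adult and −2.05 [−2.10, −2.01] in middle-aged recipients. The share of positive cells moved the same way with age, higher in the middle-aged library on day 6 and lower on day 10, with thinned intervals that did not overlap on either day. In the model that assumes 1 age difference for both days, *Ifng* was not called for age (0.57 ± 0.39, adjusted p = 1.00) or for day (−0.75, adjusted p = 0.336).

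**Figure D4:**
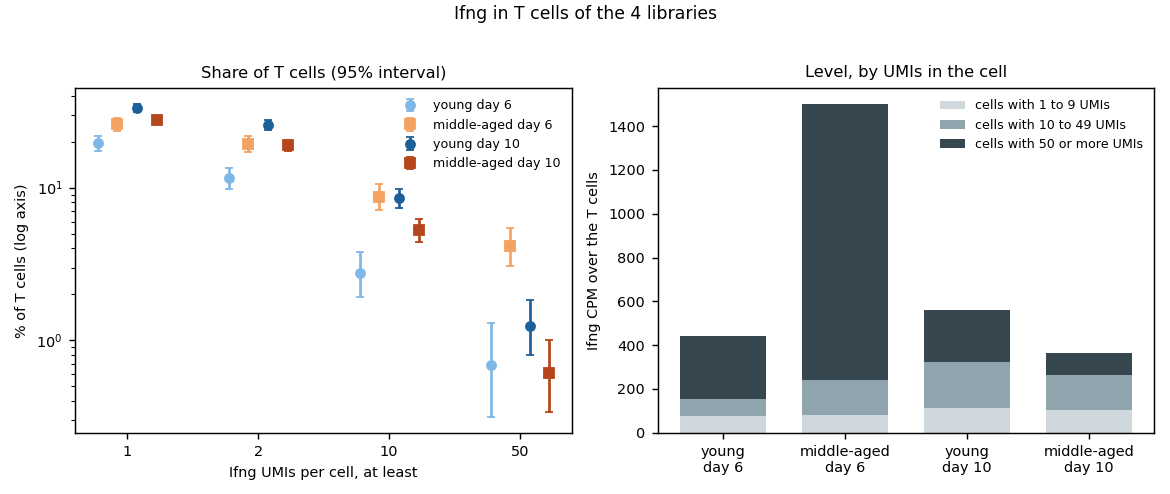
Left, share of T cells (percent, logarithmic axis, exact 95% binomial interval) with at least 1, 2, 10 or 50 *Ifng* UMIs in each library; right, the *Ifng* level of T cells (CPM) split by the number of *Ifng* UMIs of the cell. Cells with 50 or more UMIs were 4.13% of T cells in the middle-aged day 6 library and 0.609 to 1.25% in the others, and they held 84.0% of the *Ifng* UMIs of that library.

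Most *Ifng* in T cells came from cells with *Cd4* RNA. Cells with 2 or more *Cd4* UMIs held 71.7, 52.8, 60.8 and 65.6% of the *Ifng* UMIs, cells with 2 or more UMIs of *Cd8* genes 1.06 to 2.66% and cells with 2 or more UMIs of γδ T cell genes 0.128 to 1.55%. *Ifng*-positive T cells had a UMI of *Csf2*, which encodes GM-CSF, in 10.98, 25.3, 35.3 and 30.6% of cases, against 1.996, 6.90, 13.4 and 10.1% of the others. They had *Il12rb2* in 19.5 to 22.7%, against 6.07 to 11.5% of the others.

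*Il17a* went the other way. It was detected in 1.57, 5.74, 5.30 and 9.96% of *Ifng*-positive T cells and in 3.71, 12.8, 12.6 and 15.9% of those without *Ifng*. For *Stat4* the shares were 42.9 to 47.8% and 36.7 to 45.4%. The *Ifng*-positive cells were deeper (medians of 5567 to 8313 UMIs against 4589 to 5366), which raises the chance of finding any other gene in them, whereas the share with *Il17a* was the lower of the pair in each library.

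NK-like cells, the other known source of IFN-γ, held 150, 37, 157 and 81 *Ifng* UMIs, or 155, 97.8, 171 and 115 CPM. The middle-aged library was lower on both days, with log2 ratios of −0.67 [−1.23, −0.14] and −0.57 [−0.97, −0.17]. The edgeR age difference was −0.59 ± 0.21 and was not called (adjusted p = 0.349). The positive share was 24.3, 24.0, 24.7 and 20.4%. T cell markers summed to 536 to 1218 CPM in this cluster, and when cells with markers of another lineage were left out the *Ifng* ratio on day 6 was 0.015, so the difference on that day was not seen in cells without them.

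*Ifng* UMIs were also counted in DC-like cells and in monocyte/macrophage-like cluster 5, but in cells that carried T cell genes. DC-like cells held 403, 116, 21 and 69 *Ifng* UMIs (60.5, 39.4, 11.2 and 22.8 CPM), and cells with 2 or more UMIs of T cell receptor complex genes, 7.27 to 15.7% of the cluster, held 91.3, 97.4, 76.2 and 97.1% of them. In cluster 5 such cells held 97.8 to 100% of 548, 1878, 684 and 359 UMIs. The decrease of *Ifng* in DC-like cells on day 10 (−1.58 ± 0.30 by edgeR, adjusted p = 0.0022; DESeq2 0.0258) therefore lay in cells with T cell genes, and whether these were doublets was not tested. The call was lost without the young adult day 10 library (adjusted p = 0.437), without the middle-aged day 10 library (0.221) and with age left out of the model (0.0706).

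*Ifngr1*, the chain that binds IFN-γ, was broadly detected. NK-like cells had 1441, 1340.0, 1031 and 1075 CPM and T cells 832, 726, 503 and 578 CPM, the latter with a UMI in 84.7 to 87.0% of cells. In both, the day 10 libraries were below the day 6 libraries, but the change was not called (−0.38, adjusted p = 0.212 in NK-like cells; −0.42, adjusted p = 0.265 in T cells). DC-like cells had 233, 160.2, 215 and 276 CPM, and B cell-like cells 70.7 to 76.5 CPM.

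In monocyte/macrophage-like cells *Ifngr1* had 3377, 2238, 3625 and 4734 UMIs, or 151, 85.2, 159.9 and 193 CPM. The middle-aged day 6 library was the lowest and the middle-aged day 10 library the highest. The age ratio was −0.83 [−0.91, −0.75] on day 6 and 0.27 [0.21, 0.34] on day 10, and the day ratio in middle-aged recipients was 1.18 [1.11, 1.25]. The edgeR day change was 0.46 and not called (adjusted p = 0.158). *Ifngr1* was also lower in the middle-aged day 6 library in microglial cluster 1 (271, 160.3, 255 and 234 CPM; age ratio −0.76 [−0.93, −0.58] on day 6) and in DC-like cells.

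*Ifngr2*, the signalling chain of the same receptor, had the reverse distribution. Its level was 136, 147, 169.9 and 198 CPM in microglial cluster 1, 191, 157, 130.4 and 146 CPM in monocyte/macrophage-like cells and 94.4 to 107 CPM in DC-like cells. In T cells it was 21.0, 14.4, 9.60 and 11.8 CPM, and NK-like cells had only 1, 0, 3 and 10 UMIs. Over the 52 sums of a cluster and a library with 50 or more cells, the correlation of *Ifngr2* with *Ifngr1* was −0.66 and with *Stat4* −0.78, whereas *Ifngr1* and *Il12rb2* had 0.87. These sums share libraries and cell types, so the values are a description. None of the *Ifngr2* day changes was called in T cells (−0.61, adjusted p = 0.135), monocyte/macrophage-like cells (−0.49, adjusted p = 0.0748) or microglial cluster 1 (0.53, adjusted p = 0.155).

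In cluster 0 the sign of the *Ifngr2* change depended on the scaling. The CPM values were 118, 123, 143 and 163, with day ratios of 0.28 in young adult and 0.40 in middle-aged recipients. Under TMM scaling, edgeR called it lower on day 10 (−0.42 ± 0.13, adjusted p = 0.0122). The median of all genes rose by 0.76 and 0.84 in the same contrasts, so *Ifngr2* rose less than a typical gene of the cluster.

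Genes induced by IFN-γ were followed with a list of 12: the transcription factors *Irf1*, *Irf8* and *Ciita*, the T cell attracting chemokines *Cxcl9* and *Cxcl10*, the guanylate-binding and immunity-related GTPases *Gbp2*, *Gbp5*, *Irgm1* and *Igtp*, the feedback inhibitor *Socs1*, the inhibitory ligand *Cd274* and the inducible nitric oxide synthase *Nos2*. Several of them are also induced by type I interferons. By edgeR, 10 of the 12 were lower on day 10 in T cells (3.25% of all genes were called lower), 10 of 12 in monocyte/macrophage-like cells (15.2%), 8 of 12 in DC-like cells (4.55%) and 11 of 12 in cluster 0 (27.3%). In NK-like cells 3 of the 9 tested were lower (1.37%), and in microglial cluster 1 only *Socs1* was (3.46%), while *Ciita* was higher. The median log2 change of the list was −1.29 in T cells, −1.91 in monocyte/macrophage-like cells, −1.31 in DC-like cells, −2.03 in cluster 0, −0.48 in NK-like cells and −0.63 in microglial cluster 1, against a median of all genes between −0.00135 and 0.0785. The TMM scaling of cluster 0 sets these changes against the typical gene of that cluster, and there *Nos2*, called lower, rose in CPM (35.8, 78.4, 57.5 and 83.9).

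In T cells *Cxcl10* had 136, 177, 27.1 and 35.1 CPM and *Gbp2* 206, 186, 60.9 and 53.1 CPM. Both day 10 libraries were well below both day 6 libraries for each gene. For the genes of this list no background from free RNA was taken. How much of their RNA in the T cell cluster came from other cells was therefore not tested. The day change was −2.23 ± 0.19 for *Cxcl10* (adjusted p = 2.67e-07) and −1.67 for *Gbp2* (adjusted p = 7.35e-06), and *Irf1* fell by less (−0.86 ± 0.19, adjusted p = 0.00648). *Irf8* and *Ciita* were the 2 genes of the list that were not called in T cells (adjusted p = 0.0734 and 0.245).

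Monocyte/macrophage-like cells carried far more of these RNAs, with *Cxcl10* at 2494, 2331, 408 and 299 CPM, *Gbp2* at 2687, 1715, 519.6 and 397 CPM and *Irf1* at 529, 466, 219 and 189 CPM. In DC-like cells *Cxcl10* was at 2042, 1550.3, 290.0 and 397 CPM. The pattern over the libraries was the same as in T cells, high on day 6 and low on day 10 at both ages. The *Ifng* level of T cells went from 441 CPM on day 6 to 559 CPM on day 10 in young adult recipients and from 1499.5 to 361 CPM in middle-aged recipients. Without the young adult day 10 library, 8 genes of the list were called lower in T cells, 10 in monocyte/macrophage-like cells and 10 in cluster 0, and without the middle-aged day 10 library 7, 8 and 11. In DC-like cells none was called without either of them, but these fits called fewer of all genes and cannot decide whether the calls hold.

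Age called few genes of this list. In T cells, DC-like cells, monocyte/macrophage-like cells and microglial cluster 1 none of the 12 was called, while *Cxcl10* was higher in middle-aged recipients in NK-like cells (1.04, adjusted p = 2.9e-05). That call was lost without the young adult day 6, the middle-aged day 6 or the young adult day 10 library, with no filter on low counts, with day left out of the model and by DESeq2. In cluster 0, *Irf8* was lower (−1.82, adjusted p = 0.0363) and *Nos2* higher (0.88, adjusted p = 0.0410) by edgeR. Both calls were lost when any 1 of the 4 libraries or day was left out, and by DESeq2. With day left out, 0 of 9593 genes were called for age in cluster 0. Fits without 1 library drop day and leave 1 library alone in its group, so they cannot decide whether these calls hold.

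**Figure D5:**
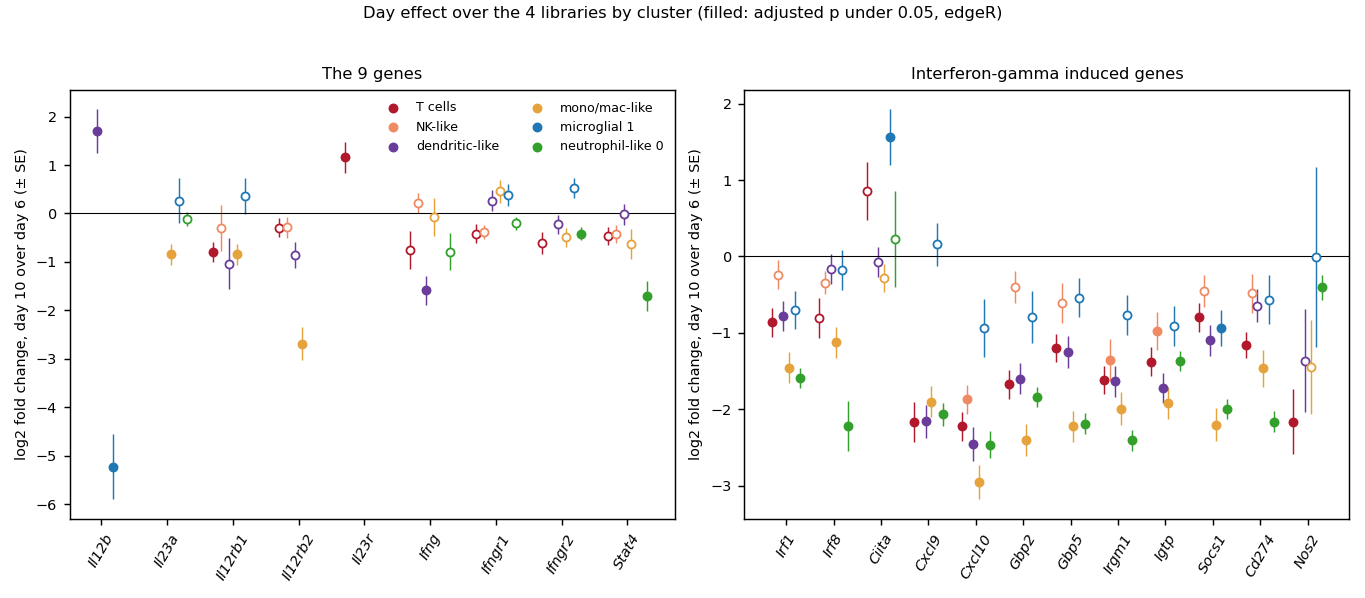
Log2 change of day 10 over day 6 (edgeR, with its SE) of the 9 genes (left) and of 12 IFN-γ-induced genes (right) in 6 clusters, with filled points for an adjusted p under 0.05. The 9 genes lie on both sides of 0, whereas 10 of the 12 induced genes were lower on day 10 in T cells and in monocyte/macrophage-like cells. In cluster 0 the sign for *Ifngr2*, *Il23a*, *Ifngr1* and *Nos2* differs between TMM scaling and CPM.

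The promoters of 4 of the induced genes are shown because these genes fell together on day 10 and because they hold the 2 kinds of interferon-responsive motif. Each run is the 150 bases before the RefSeq start on GRCm38.p6, with matches to GAS (TTCNNNGAA) or ISRE (a pair of GAAA runs 2 bases apart), read on either strand, in capitals. Irf1 is at chr11:53769864-53770013 on the plus strand, Gbp2 at chr3:142620513-142620662 on the plus strand, Igtp at chr11:58199406-58199555 on the plus strand and Socs1 at chr16:10785537-10785686 on the minus strand.
Irf1: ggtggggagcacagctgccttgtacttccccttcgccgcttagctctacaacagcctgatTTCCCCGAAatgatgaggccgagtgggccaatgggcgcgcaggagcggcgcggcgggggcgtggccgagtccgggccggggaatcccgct
Gbp2: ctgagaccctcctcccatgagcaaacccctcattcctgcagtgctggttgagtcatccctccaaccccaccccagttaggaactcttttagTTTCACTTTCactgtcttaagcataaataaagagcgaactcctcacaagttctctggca
Igtp: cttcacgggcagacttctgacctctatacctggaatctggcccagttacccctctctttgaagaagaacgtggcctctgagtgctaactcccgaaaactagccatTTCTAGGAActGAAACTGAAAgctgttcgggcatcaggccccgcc
Socs1: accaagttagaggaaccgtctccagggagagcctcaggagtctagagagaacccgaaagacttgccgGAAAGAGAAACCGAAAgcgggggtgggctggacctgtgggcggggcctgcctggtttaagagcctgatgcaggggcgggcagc
*Irf1* holds a GAS match 90 to 82 bases before the start, *Gbp2* an ISRE match at 59 to 50, *Igtp* both (GAS at 45 to 37, ISRE at 34 to 25), and *Socs1* a pair of overlapping ISRE matches (83 to 74 and 77 to 68). Of the 12 genes, 10 were in the promoter table. In the 250 bases before the start, 4 of these held a GAS match, 6 an ISRE match and 8 either, against 9.66% of all promoters with either.

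Other genes around the axis moved with day as well. In monocyte/macrophage-like cells, 15.2% of all genes were called lower on day 10 by edgeR. Among the kinases and STATs, *Jak2* (−1.33) and *Tyk2* (−0.62), whose kinases sit on the IFN-γ and IL-12 receptors, fell in monocyte/macrophage-like cells by edgeR, where at most 1 gene of that list was called without either day 10 library. Among the T helper lineage factors, *Tbx21*, the type 1 factor, was at 28.1, 34.2, 32.98 and 33.8 CPM in T cells and was not called for day.

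Of the partner chains and relatives, *Il27*, which encodes the other chain of IL-27, fell in monocyte/macrophage-like cells (−2.27), where 2 of 5 were lower against 15.2% of all genes. *Ebi3*, which encodes the IL-27 chain that is related to p40, rose in T cells (1.84, edgeR adjusted p = 1.9e-04). It was the only 1 of 3 tested that was called there. Of 6 type 17 products and receptors, *Ccr6* (2.07) and *Il1r1* (1.09) rose in T cells and *Il17f* (−2.21, adjusted p = 0.0259) and *Il22* (−1.53) fell by edgeR. For both lists the background in T cells was 7.22% of all genes called for day, and 3.25% called lower. The *Il17f* level was 19.1, 126, 16.2 and 6.28 CPM, so most of its decrease lay in middle-aged recipients. *Il22* was the only gene of these lists called for age in T cells (2.60 ± 0.22, adjusted p = 8.6e-06). That age call was lost with day left out of the model, where 0 of 11362 genes were called for age in T cells. It was also lost when any 1 of the 4 libraries was left out. Such a fit drops day and leaves 1 library alone in its group, so it cannot decide whether the call holds. The day 10 decreases of *Il17f* and *Il22* were lost without either day 10 library. Of the 3 IL-18 genes none was called in T cells, while *Il18*, which acts with IL-12 on IFN-γ, fell in DC-like cells (−2.67; 1 of 3 lower, against 4.55% of all genes) and in monocyte/macrophage-like cells (−2.64; 2 of 3 lower, against 15.2%). Of the 4 genes that lead to IL-12 and IL-23 production, *Cd40*, the receptor through which T cells license DCs, fell in DC-like cells (−1.35). There 2 of 4 were lower, against 4.55% of all genes. *Cd40* also fell in monocyte/macrophage-like cells (−2.03), where 3 of 3 tested were lower, against 15.2%. In DC-like cells these calls, too, were lost without either day 10 library. These fits leave 1 library alone in its group and cannot decide whether the calls hold.

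In naive spinal cord microglia, measured in bulk with 79373420 and 76293436 assigned reads and 1 library per age, the IFN-γ receptor was the part of the axis that was readily detected. *Ifngr1* had 61584 counts in the young and 54504 in the middle-aged library (776 and 714 CPM, log2 ratio −0.12), and *Ifngr2* had 17585 and 17853 (222 and 234 CPM, 0.08). *Il12rb2* had 241 and 267 counts, and *Ifng* and *Il23r* had none in either library. In bulk samples fewer cells of a type and less RNA per cell cannot be told apart.

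The cytokine chains were near the limit of detection in these bulk libraries. *Il12b* had 8 counts in the young and 53 in the middle-aged library (log2 ratio 2.79 [1.70, 4.07]), and *Il23a* had 29 and 4 (−2.80 [−4.77, −1.29]). *Il12rb1* had 10 and 25 counts and *Stat4* 14 and 8. The intervals for *Il12b* and *Il23a* exclude 0 in opposite directions, but they cover counting error between 2 libraries only, and the differences have no replicate check.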

How the data were processed

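Single-cell RNA was measured in 4 libraries of CD45+ spinal cord cells, and bulk RNA in 2 libraries of naive microglia. The authors deposited UMI counts made with Cell Ranger 3.1.0 (mm10, GENCODE vM23) and cluster numbers from Seurat 4.0.4 after filters on cells (at least 200 genes, under 10% mitochondrial reads) and genes (at least 3 cells). The deposited bulk counts were made with fastp 0.20.0, HISAT2 2.1.0 and featureCounts (Subread 1.5.0-p2), without strand. Positions follow GENCODE and promoters RefSeq, both on GRCm38. No doublet caller was run.

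From these counts, UMIs were summed per cluster and library. Sums were tested with edgeR 4.0.16 (R 4.3.3) on genes with 10 or more counts in 2 or more libraries, with DESeq2 1.42.0 as an alternative, along with other scaling, no filter, a single term and each library left out. Log2 ratios required 20 UMIs. Shares of cells have Clopper-Pearson intervals, for all cells and after thinning to 2000 UMIs, which left out shallower cells. Intervals cover counting error only. In the model with both terms, the error behind a p-value is the departure of the 4 libraries from additive day and age effects. It is not a spread between replicate libraries or mice. The study compared cells by a rank test; sums were used here because cells of 1 library are not replicates.

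The 9 genes, the pathway lists and the marker lists were chosen with earlier results of these data known, and cluster 0 was added to the tests after its values were seen. All 9 are named. Some results of the pathway lists and of the most similar genes are not reported here. From each pathway list, the up to 3 genes with the largest ratios of the same sign in both contrasts of age or of day were to be named, and any other list gene was picked after its values were seen.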

Additional observations from a re-analysis of the deposited data

Results flagged for a closer look

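Contrasts whose sign differed between the 2 days or the 2 ages, with intervals on opposite sides of 0, were picked out. With 1 library per age and day these differences were not tested, and each rests on counting error alone.

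In T cells the age ratio (log2, middle-aged over young adult) of *Ifng* was 1.77 on day 6 and −0.63 on day 10, and its day ratio (day 10 over day 6) was 0.34 in young adult and −2.05 in middle-aged recipients. The age ratio of *Ifngr1* in T cells was −0.20 and then 0.20, and that of *Stat4* was −0.16 and then 0.27. The median of all genes in T cells was −0.07 and then 0.07 in the same contrasts. In DC-like cells the age ratio was 1.84 and then −1.14 for *Il12b*, −0.62 and then 1.03 for *Ifng*, and −0.54 and then 0.36 for *Ifngr1*. The sign of the *Il12b* value on day 10 did not hold without cells carrying markers of another lineage (0.062) or as a mean of log2 values per cell (0.0030). In monocyte/macrophage-like cells the age ratio was −0.83 and then 0.27 for *Ifngr1* and −0.28 and then 0.16 for *Ifngr2*. The day ratio of *Ifng* in these cells was 0.85 in young adult and −0.59 in middle-aged recipients. Its level there was 1.39 to 2.70 CPM, against 2.55 to 6.13 CPM in cluster 0, which should lack *Ifng*. In microglial cluster 1 *Il12rb1* had an age ratio of 1.14 and then −0.73, and a day ratio of 1.14 in young adult and −0.73 in middle-aged recipients.

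For *Ifng* in T cells, cells with 50 or more *Ifng* UMIs held between 27.7 and 84.0% of the UMIs, and for *Il12b* in DC-like cells 10 cells held between 90.9 and 99.2%. Whether so few cells account for the change of sign was not tested.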

How the results depend on the processing

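No paired analysis was possible because each age and day has 1 library. The number of the 9 genes called for day was 2 in T cells (0 to 5 with 1 library left out, 0 by DESeq2), 2 in DC-like cells (0 to 4; 0 with age left out of the model, 1 by DESeq2), 3 in monocyte/macrophage-like cells (0 to 5; 1 by DESeq2) and 2 in cluster 0 (1 to 4). The calls were lost without either day 10 library, except that on *Stat4* in cluster 0 and the call in microglial cluster 1. They grew without either day 6 library, except in microglial cluster 1 and in DC-like cells without the middle-aged day 6 library. Over all genes, calls for day also fell in each cluster without either day 10 library. Without either day 6 library they rose in T cells, DC-like cells, monocyte/macrophage-like cells and microglial cluster 1, but not in cluster 0. The pattern was thus mostly that of all genes, and its cause was not tested. For age, 0 were called in each cluster under each setting, except *Stat4* in DC-like cells with no filter on low counts (1). Of the IFN-γ-induced genes, the number lower on day 10 was 3 in NK-like cells (1 to 5 with 1 library left out, 1 with no filter, 1 by DESeq2), 8 in DC-like cells (0 to 10) and 1 in microglial cluster 1 (0 to 8; 2 with RLE size factors, 4 with no filter, 0 with age left out, 0 by DESeq2), and 7 to 11 in T cells, 8 to 11 in monocyte/macrophage-like cells and 10 to 11 in cluster 0 over all settings.

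Of 90 age comparisons of shares of cells thinned to 2000 UMIs, 10 had intervals that did not overlap, 5 after thinning to 1000 UMIs and 15 without thinning. The comparisons covered the tested clusters except cluster 0. The same share over all genes was not computed, so the count cannot be set against a background. Signs of log2 ratios turned as follows; the cause was not tested. With TMM factors the day ratios in cluster 0 were −0.27 (young adult) and −0.14 (middle-aged) for *Ifngr1*, −0.45 and −0.39 for *Ifngr2* and −0.36 (middle-aged) for *Il23a*, and in monocyte/macrophage-like cells −0.023 for *Ifngr1* (young adult). Without mitochondrial and ribosomal protein genes in the total, the middle-aged day ratio of *Ifngr2* in monocyte/macrophage-like cells was 0.0019. Without cells carrying markers of another lineage, the age ratio was 0.015 for *Ifng* in NK-like cells on day 6 and 0.062 for *Il12b* in DC-like cells on day 10. Without its 10 highest cells, the young adult day ratio of *Stat4* in DC-like cells was −0.16. As a mean of log2 values per cell, the difference was 0.0030 for *Il12b* in DC-like cells (age, day 10), 0.033 for *Ifng* in DC-like cells (middle-aged, day) and 0.022 for *Il12b* in microglial cluster 1 (age, day 6).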

Other observations

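Over the 52 sums of a cluster and a library with 50 or more cells, the genes whose level (log2 of CPM + 10) was most like that of 7 of the 9 were *Snx22* for *Il12b* (Pearson's r = 0.93), *Gm45805* for *Il23a* (0.91), *Gm17018* for *Il12rb1* (0.85), *Klrk1* for *Il12rb2* (0.94), *Icos* for *Ifng* (0.94), *Il2rb* for *Ifngr1* (0.92) and *P2ry10* for *Stat4* (0.90). *Klrk1* encodes the activating NK receptor NKG2D, *Icos* a costimulatory receptor of T cells, and *Il2rb* a chain of the IL-2 and IL-15 receptors. The sums share libraries and cell types, and the correlations are given without a p.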
